A study of Mus musculus with 13 samples.

Results

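The 10 genes described here are output and feedback genes of the circadian clock, *Per1*, *Per2*, *Per3*, *Cry1*, *Cry2*, *Dbp*, *Nr1d1*, *Nr1d2*, *Tef* and *Ciart*. They were chosen by name from the deposited TPM table, which lists 35967 gene symbols, and were compared between groups and library by library as a check on the time at which glomeruli were collected. RNA of isolated kidney glomeruli was sequenced from 13 wild-type Balb/c mice, 1 library per mouse, after intraperitoneal injection of 2.0 mg of rabbit IgG. Control mice received preimmune rabbit IgG (n = 5), and mice with experimental membranous nephropathy (MN) received rabbit anti-THSD7A IgG and were euthanized at day 1 (n = 4) or day 5 (n = 4). The antibody binds THSD7A on podocytes, so the model is a passive transfer of heterologous IgG. Control mice of both days form 1 group. Mice were housed on a regular day/night cycle. Per the methods, the MN model was studied in male mice, and an age of 14 to 15 weeks is stated for mice in which MN was induced. The day of each control mouse and the hour of collection are not given in the sources used here, so differences in collection time and differences between groups cannot be told apart.

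The mammalian clock is a feedback loop of transcription. CLOCK or NPAS2 pairs with BMAL1, the product of *Arntl*, and this pair binds E-box sequences and drives the period genes *Per1* to *Per3*, the cryptochrome genes *Cry1* and *Cry2*, and output genes such as *Dbp*, *Tef*, *Nr1d1*, *Nr1d2* and *Ciart*. Period and cryptochrome proteins repress that pair, and the nuclear receptors encoded by *Nr1d1* and *Nr1d2* repress *Arntl*, *Npas2*, *Nfil3* and *Cry1*. In peripheral organs of mice, *Nr1d1* and *Dbp* transcripts are known to peak by day, period transcripts around dusk and *Arntl* and *Npas2* transcripts toward dawn, so the relative levels of these genes in a tissue sample vary with the hour at which it was taken. *Per1* also responds directly to glucocorticoids. In the kidney, the clock is known for daily rhythms of filtration and of salt handling.

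Since E-boxes tie the members to BMAL1, the 250 bases before the transcription start were searched for CACGTG, the canonical E-box, for its variant CACGTT and for AGGTCA, a nuclear receptor binding motif, on both strands. RefSeq promoters (GRCm38.p6) were found for 9 of the 10 members, 11 promoters in all, and not for *Per2*. A CACGTG stood in 5 of the 11 promoters, those of the 4 members *Ciart*, *Cry1*, *Per1* and *Tef*, against 6.02% of all 32851 promoters. CACGTT stood in 3 of the 11 promoters, of *Cry1*, *Cry2* and *Nr1d1*, against 3.85% of all promoters. AGGTCA stood in 2 of the 11, of *Per1* and *Nr1d2*, against 14% of all promoters. *Ciart* had 3 copies of CACGTG, starting 116, 58 and 44 bases before its start. These matches are letters in a window and not measured binding sites. Across libraries *Ciart* and *Cry1* varied opposite to *Arntl*, and *Per1* and *Nr1d1* did not, as described further on. *Per3*, *Nr1d2* and *Dbp* also varied opposite to *Arntl* and had neither CACGTG nor CACGTT in this window. As examples with a match, from members that did and did not vary opposite to *Arntl*, 4 sequences are printed. They are those of *Ciart* (chr3:95882229-95882478, minus strand), *Cry1* (chr10:85185055-85185304, minus strand), *Per1* (its upstream promoter, chr11:69098699-69098948, plus strand) and *Nr1d1* (chr11:98775378-98775627, minus strand). They run 5′ to 3′, with CACGTG and CACGTT on either strand in capitals.
Ciart: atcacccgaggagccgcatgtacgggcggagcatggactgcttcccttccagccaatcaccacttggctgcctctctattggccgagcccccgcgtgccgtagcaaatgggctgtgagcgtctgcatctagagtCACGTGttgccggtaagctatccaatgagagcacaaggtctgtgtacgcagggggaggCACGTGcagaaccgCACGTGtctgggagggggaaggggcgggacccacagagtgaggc
Cry1: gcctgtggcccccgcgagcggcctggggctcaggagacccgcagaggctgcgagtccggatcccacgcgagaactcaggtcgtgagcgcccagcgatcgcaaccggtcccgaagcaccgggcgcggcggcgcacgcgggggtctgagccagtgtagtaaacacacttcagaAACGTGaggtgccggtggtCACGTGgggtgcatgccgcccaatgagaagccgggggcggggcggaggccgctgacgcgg
Per1: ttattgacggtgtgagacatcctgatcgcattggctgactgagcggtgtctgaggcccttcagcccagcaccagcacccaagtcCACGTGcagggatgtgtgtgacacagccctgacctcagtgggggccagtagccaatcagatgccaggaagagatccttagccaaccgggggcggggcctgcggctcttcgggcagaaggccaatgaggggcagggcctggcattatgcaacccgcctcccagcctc
Nr1d1: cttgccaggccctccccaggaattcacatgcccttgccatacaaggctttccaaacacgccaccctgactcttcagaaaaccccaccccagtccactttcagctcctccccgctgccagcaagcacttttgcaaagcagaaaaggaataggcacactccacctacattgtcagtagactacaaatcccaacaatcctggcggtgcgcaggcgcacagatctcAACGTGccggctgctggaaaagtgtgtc

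The authors quantified reads against GRCm39 with kallisto and deposited TPM, abundances per transcript length that are rescaled to a fixed total in each library. The rescaling removes depth, so depth is unknown and no counting error could be given. Library totals, scaling factors and the share of symbols at 0 were alike in all 13 libraries, with factors from 0.954 to 1.04. All 8 podocyte markers tested were present, with a summed TPM of 7578 to 10261 over all libraries. Summed TPM of the 12 tubular markers were 577 to 1599 in control libraries, 1138 to 1899 at day 1 and 833 to 1015 at day 5, and those of the 8 leukocyte markers were 21.7 to 56.5 over all libraries. Markers called among these lists were the podocyte gene *Cdkn1c*, higher at day 5 than in control (log2 fold change 0.72, adjusted p = 7.08e-04, limma), and the tubular genes *Aqp2* and *Calb1*, lower at day 5 than at day 1 (-1.30 and -1.39, adjusted p = 0.0286 and 0.0313, limma). In bulk glomeruli, fewer cells of a type and less RNA per cell cannot be told apart.

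All 10 members were expressed in every library and passed the filter on low values, which asked that 4 or more libraries reach 1 TPM. In control libraries, *Tef* had the highest mean TPM, 493 ± 109 (SD, n = 5), and *Dbp* followed with 464 ± 137 (SD, n = 5). Both encode PAR bZIP transcription factors, which pass the rhythm on through D-box sequences. *Nr1d1* came next with 289 ± 44.6 TPM (SD, n = 5), then *Nr1d2* with 162 ± 17.2 (SD, n = 5) and *Per1* with 124 ± 35.6 (SD, n = 5). The other members lay lower, from 46 ± 7.36 TPM (SD, n = 5) for *Cry2* through *Per2*, *Per3* and *Ciart* to 16.8 ± 6.76 (SD, n = 5) for *Cry1*. Ranges of neighbours in this order overlapped, except those of *Nr1d1* and *Nr1d2* and those of *Per1* and *Cry2*. *Tef* exceeded *Dbp* in 3 of 5 control libraries, so that their order was not settled.

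**Figure D1:**
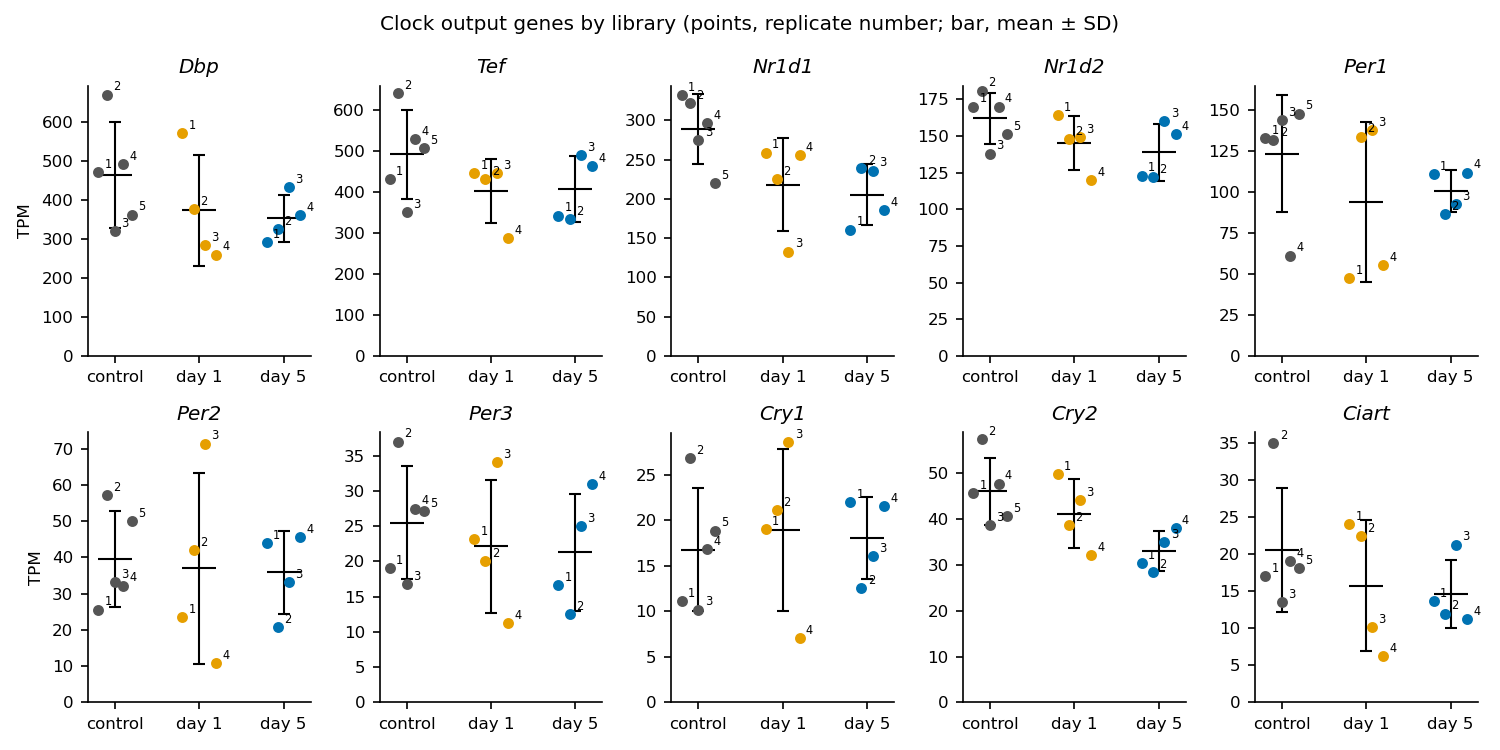
TPM (vertical axes, from 0) of the 10 clock output genes in control, day 1 MN and day 5 MN libraries. Each point is 1 library with its replicate number, and bars give the mean ± SD of n = 5, 4 and 4. Groups overlap for every gene except day 5 MN and control *Cry2*.

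No member was called in any comparison. A gene was called where limma, fitted over 14322 genes on the log2(scaled TPM + 0.5) scale, gave both a Benjamini-Hochberg adjusted p-value below 0.05 and a log2 fold change beyond 0.5 in either direction. At day 1, 0 of 10 members were called, against 0.0908% of all genes tested, and none of the 10 had an unadjusted p under 0.05, against 12.6% of all genes. At day 5, 0 of 10 were called against 3.21% of all genes, and *Cry2* and *Nr1d1*, both with lower values, had an unadjusted p under 0.05, against 20.1% of all genes and 9.06% in that direction. Between day 5 and day 1 MN, 0 of 10 were called against 1.81%, and only *Cry2* had an unadjusted p under 0.05, against 15.5%. A count of 0 among 10 members lies near the background in each comparison. Libraries of the compared groups did not overlap for 0 members at day 1, 1 at day 5 and 0 between the days, against 4.22%, 10.8% and 11% of all genes.

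Most members had lower fitted values in MN than in control libraries, within the spread between mice. The log2 fold change was negative for 9 of 10 members at day 1 (median -0.264, range -0.451 to 0.15) and for 9 of 10 at day 5 (median -0.24, range -0.461 to 0.188), *Cry1* being the exception at both days. Over all genes tested, 50.8% were negative at day 1 and 50.7% at day 5, with a median of -0.003 at each day. Both comparisons use the same control libraries, and the members vary together within libraries, so the signs are not independent of each other. Between day 5 and day 1 MN, 5 fitted values were positive and 5 negative, with a median of -0.014, against 48.7% negative over all genes.

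The signs at day 1 changed when the tubular marker score entered the fit and when single libraries were left out. With this score as covariate, 6 of 10 members were negative, with a median of -0.062. All 12 tubular markers had a positive log2 fold change at day 1, so the score overlaps with the day 1 group. A fit with both cannot fully separate them. Without day 1 replicate 4, 7 of 10 were negative, with a median of -0.0555, and without control replicate 2 the median was -0.148. In the other direction, all 10 were negative without control replicate 3 (median -0.35) or without day 1 replicate 3 (median -0.229). All 10 were also negative with *Arntl* as covariate (median -0.381), a setting chosen after the data were seen. At day 5, 8 of 10 were negative without day 5 replicate 2 (median -0.148), and the median was -0.365 without control replicate 3.

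**Figure D2:**
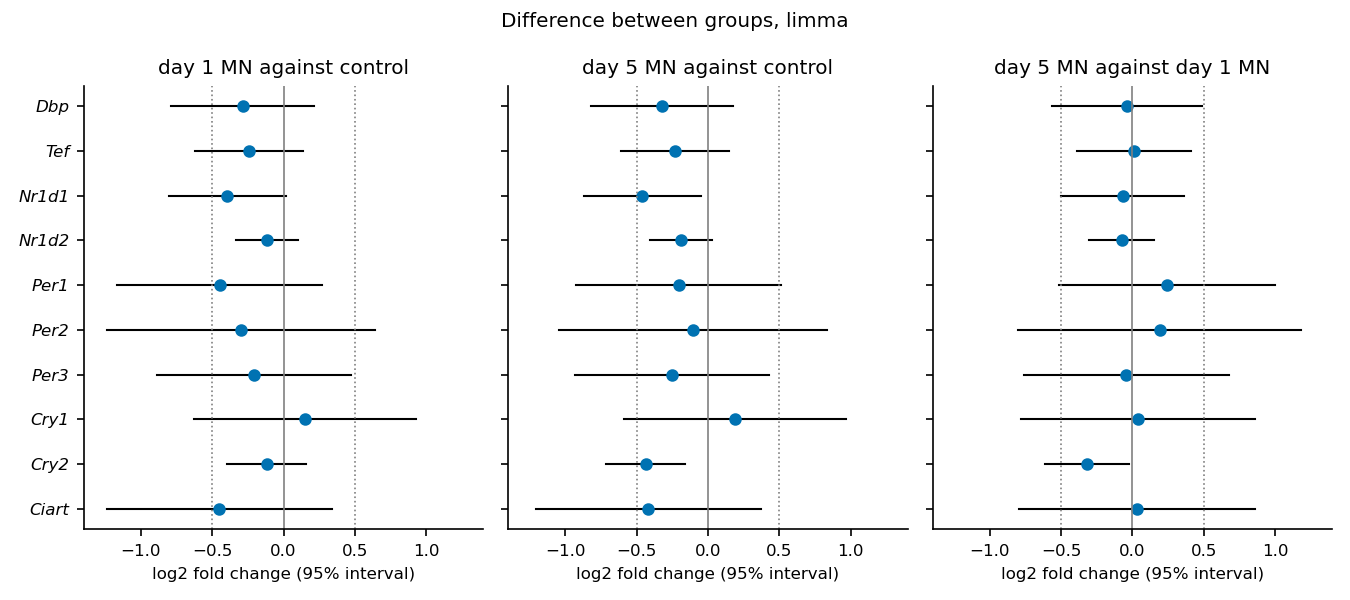
Log2 fold change (points) with its 95% interval from limma (lines) for each member in the 3 comparisons. Dotted lines mark -0.5 and 0.5. Only the intervals of *Cry2* and *Nr1d1* at day 5 and of *Cry2* between the days leave out 0.

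The period genes encode the repressors PER1, PER2 and PER3. *Per1*, on chromosome 11 of GRCm39 from 68986035 to 69002300, had TPM of 133, 132, 144, 61.3 and 148 in control replicates 1 to 5, of 47.8, 134, 138 and 55.7 at day 1 and of 111, 86.6, 92.8 and 112 at day 5. The 3 lowest libraries, control replicate 4 and day 1 replicates 1 and 4, were at 61.3 or less while all others were at 86.6 or more, and day 1 libraries fell on either side of the day 5 range. Fitted differences from control were -0.45 (standard error 0.33) for day 1 and -0.21 for day 5, with adjusted p = 0.607 and 0.801 (limma). *Per2*, on chromosome 1 from 91343700 to 91387069, had TPM of 25.6, 57.1, 33.2, 32.2 and 49.9 in control libraries, of 23.6, 42.1, 71.4 and 10.9 at day 1 and of 43.9, 20.8, 33.2 and 45.5 at day 5. Day 1 MN held both the highest and the lowest *Per2* value of the study, a 6.55-fold spread among mice of 1 group. *Per3*, on chromosome 4 from 151081373 to 151129140, was between 16.8 and 37 TPM in control libraries, between 11.2 and 34.1 at day 1 and between 12.5 and 31 at day 5. Its log2 fold changes of -0.21 and -0.25 were smaller than their standard error of 0.32.

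The cryptochrome genes encode the main repressors of the BMAL1 pair. *Cry1*, on chromosome 10 from 84967560 to 85021252, had TPM of 11.1, 26.9, 10.2, 16.9 and 18.9 in control libraries, of 19.1, 21.1, 28.6 and 7.11 at day 1 and of 22, 12.6, 16.1 and 21.6 at day 5. The lowest library of each group, control replicate 3, day 1 replicate 4 and day 5 replicate 2, was also the lowest for *Cry2*. *Cry2*, on chromosome 2 from 92233894 to 92264474, had TPM of 45.6, 57.4, 38.7, 47.7 and 40.6 in control libraries, of 49.7, 38.6, 44.1 and 32.2 at day 1 and of 30.4, 28.4, 35 and 38.1 at day 5. All 4 day 5 libraries lay under all 5 control libraries, by a narrow margin between 38.1 and 38.7, and 5.71% of all genes were likewise lower without overlap. *Cry2* had the lowest adjusted p of the members, with a day 5 log2 fold change of -0.44 (standard error 0.13, 95% interval -0.71 to -0.16, adjusted p = 0.0649, limma), and was not called. Its difference between day 5 and day 1 MN was -0.32 (95% interval -0.61 to -0.03, adjusted p = 0.277, limma). The adjusted p of *Cry2* at day 5 was lower without day 1 replicate 1 (0.0468) or replicate 4 (0.0398), and when day 1 libraries were kept out of the fit (0.0483, limma), the fold change staying within 0.5 each time.

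*Nr1d1* and *Nr1d2* encode the nuclear receptors REV-ERB alpha and beta. *Nr1d1*, on chromosome 11 from 98658752 to 98666188, had TPM of 332, 322, 275, 297 and 220 in control libraries, of 259, 225, 133 and 256 at day 1 and of 161, 239, 236 and 186 at day 5. Control replicate 5 had the lowest control value and overlapped with both MN groups, while the other 4 control libraries exceeded every MN library. Its log2 fold changes were -0.39 for day 1 (95% interval -0.80 to 0.01) and -0.46 for day 5 (95% interval -0.87 to -0.05), each with a standard error of 0.19 and with adjusted p = 0.414 and 0.191 (limma). The day 5 adjusted p was 0.0465 without day 1 replicate 3, the library with the lowest *Nr1d1* (limma). Across the 13 libraries *Nr1d1* was low where the mean log2 level of 12 immediate-early and dissociation genes was high (r = -0.698, and -0.85 with group means subtracted, as a description). *Hspa1a* and *Hspa1b* varied most in this list, 15.4-fold and 24-fold over all libraries. In the control and day 1 groups, both were highest in control replicate 5 and day 1 replicate 3, the libraries with the lowest *Nr1d1* of these groups. Day 5 went otherwise. Replicate 1 had the lowest *Nr1d1* of that group, with *Hspa1a* at 14.3 and *Hspa1b* at 16.5 TPM. Replicate 4 had the highest of both at day 5, 25.2 and 54.6 TPM. *Fos* (10.8 TPM) and *Egr1* (9.38 TPM) had their lowest control values in control replicate 5, so not every gene of the list followed. Both were highest of all libraries in day 1 replicate 4 (27.6 TPM each), where *Nr1d1* was 256 TPM. Summed TPM of the 12 genes was 621 to 803 in control libraries, 608 to 933 at day 1 and 631 to 696 at day 5, and their part in the *Nr1d1* values was not tested. *Nr1d2* varied least of the members, from 138 to 181 TPM in control libraries, 120 to 164 at day 1 and 122 to 160 at day 5. Its log2 fold changes of -0.12 and -0.19 had a standard error of 0.10 each and did not pass (adjusted p = 0.663 and 0.316, limma).

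*Dbp*, on chromosome 7 from 45354512 to 45359627, had TPM of 472, 671, 320, 493 and 363 in control libraries, of 572, 378, 284 and 260 at day 1 and of 293, 325, 434 and 361 at day 5. *Tef*, on chromosome 15 from 81686622 to 81711064, had 433, 642, 352, 531 and 509 in control libraries, 447, 432, 447 and 287 at day 1 and 343, 334, 491 and 464 at day 5. For both genes, control replicate 2 was the highest library of all 13 and day 1 replicate 4 the lowest. Log2 fold changes were -0.29 and -0.32 for *Dbp* and -0.24 and -0.23 for *Tef* at day 1 and day 5 (adjusted p from 0.489 to 0.638, limma). *Ciart*, on chromosome 3 from 95785815 to 95789991, encodes CHRONO, a repressor of the BMAL1 pair. It had TPM of 17.1, 35, 13.6, 19.1 and 18.1 in control libraries, of 24.1, 22.4, 10.2 and 6.24 at day 1 and of 13.7, 12, 21.3 and 11.3 at day 5. The extremes were again control replicate 2 and day 1 replicate 4. Its log2 fold changes of -0.45 and -0.42 had a standard error of 0.37 each and did not pass (adjusted p = 0.641 and 0.592, limma).

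The spread between mice of 1 group exceeded the differences between groups for most members. The SD of log2 values within groups was 0.464 at the median of the members, from 0.162 for *Nr1d2* to 0.744 for *Per2*, against a median of 0.175 over all genes tested. It lay above the median of all genes in 9 of 10 members and above their 90th percentile in 5, *Per1*, *Per2*, *Per3*, *Cry1* and *Ciart*. Between the lowest and the highest of the 13 libraries, scaled TPM plus 0.5 differed 6.18-fold for *Per2*, 5-fold for *Ciart* and 3.76-fold for *Cry1*, against 1.57-fold for the median gene. Groups accounted for 2.36% of the variation of *Cry1*, 3.46% of that of *Per2* and 5.42% of that of *Per3*, while the median over all genes was 22.8%. *Cry2*, with 50.1%, and *Nr1d1*, with 35.8%, had the highest shares among the members.

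The same libraries were high or low for many members. In control mice, 8 of 10 members were highest in replicate 2 and 7 were lowest in replicate 3. At day 1, 8 of 10 were lowest in replicate 4, and at day 5, 7 of 10 were lowest in replicate 2. Libraries of low output genes were thus present in each group.

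*Arntl*, which encodes BMAL1, varied in the opposite sense. It had TPM of 5.39, 0.908, 9.53, 3.59 and 2.94 in control replicates 1 to 5, of 1.31, 2.32, 1.95 and 7.28 at day 1 and of 3.37, 7.07, 2.63 and 2.46 at day 5. Its highest library was control replicate 3 in the control group, replicate 4 at day 1 and replicate 2 at day 5, the libraries in which most members were lowest. Its lowest library, control replicate 2, held the highest *Dbp*, *Tef*, *Per3*, *Cry2*, *Nr1d2* and *Ciart* of all 13. *Arntl* differed 10.5-fold within the control group and did not differ between groups beyond that spread (log2 fold change -0.35 at day 1 and 0.01 at day 5, standard error 0.54 each, adjusted p = 0.837 and 0.995, limma). The ratio of *Dbp* to *Arntl* TPM within a library ran from 33.6 to 740 in control mice, from 35.8 to 436 at day 1 and from 46.1 to 165 at day 5. The 3 ranges overlapped. The mean log2 level of the podocyte markers also moved with *Arntl* (r = 0.816 over 13 libraries), while the tubular markers did not follow *Arntl* (r = 0.0252). The r of the podocyte markers with the members ran from -0.741 for *Cry1* to -0.446 for *Cry2*, except for *Per1* (-0.0241) and *Nr1d1* (0.166). With group means subtracted, it ran from -0.785 for *Cry2* to -0.576 for *Per2*, again except for *Per1* (-0.126) and *Nr1d1* (0.0306). Summed TPM of the podocyte markers was 7578 to 10222 in control libraries, 8385 to 10261 at day 1 and 9139 to 9819 at day 5, and its part in the clock gene values was not tested.

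**Figure D3:**
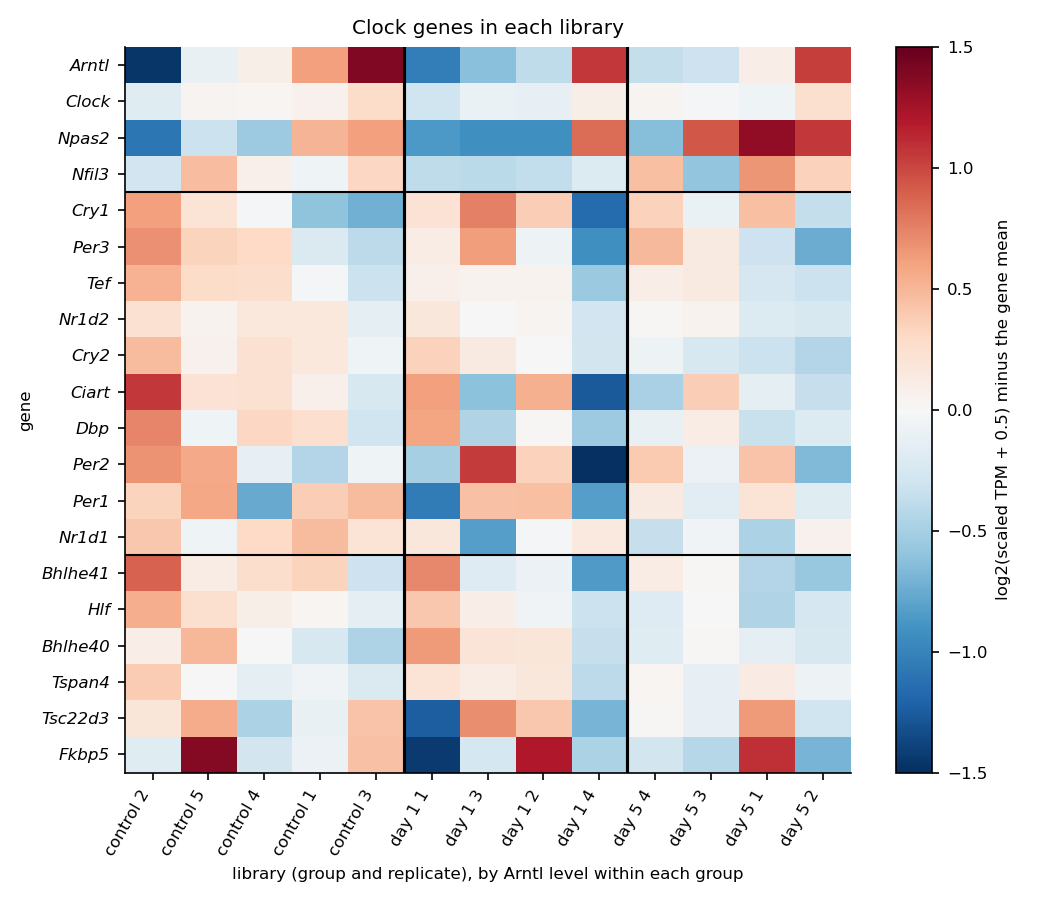
Log2(scaled TPM + 0.5) minus the gene's mean over 13 libraries (colour, values beyond 1.5 at the end colours) for *Arntl* and other loop factors (top), the 10 members (middle) and further clock-controlled genes (bottom), with libraries ordered by *Arntl* within each group. *Arntl*-high libraries at the right of each group, such as day 1 replicate 4, have low *Cry1*, *Per3* and *Tef*.

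The relation of the members to *Arntl* was followed across the 13 libraries, each point being the values of both genes in 1 library. For *Dbp*, one of 4 gene pairs tested, Pearson's r was -0.625 (permutation p = 0.0227, adjusted p = 0.042) and Spearman's rho was -0.522 (permutation p = 0.0718, adjusted p = 0.0957). With group means subtracted, r was -0.732 (permutation p = 0.00472, adjusted p = 0.00944). These permutations mixed all 13 libraries and did not allow for the subtracted means, so this p may be too small. Without control replicate 2 and day 1 replicate 1, the libraries farthest from the median of *Dbp*, r was -0.248 (permutation p = 0.455), so that the relation of *Dbp* and *Arntl* rests on these libraries. Leaving out 1 library at a time, the adjusted p was above 0.05 in 7 of 13 cases, and r was -0.47 without control replicate 2. *Nr1d1* showed no such relation (r = 0.186, permutation p = 0.542, adjusted p = 0.542, and rho = 0.176, permutation p = 0.567). It was 0.0724 without the libraries farthest from its median.

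The other members were compared with *Arntl* after their values had been seen, so that r is given as a description without a p. It was -0.834 for *Cry1*, -0.821 for *Per3*, -0.802 for *Tef*, -0.702 for *Nr1d2*, -0.657 for *Cry2*, -0.644 for *Ciart* and -0.593 for *Per2*, over the 13 libraries. Leaving out any 1 library, it stayed between -0.867 and -0.803 for *Cry1*, between -0.86 and -0.778 for *Per3* and between -0.843 and -0.726 for *Tef*. With group means subtracted, it was -0.943 for *Tef* and -0.904 for *Cry2*. In all, 8 of 10 members had r under -0.5 with *Arntl*, against 3.8% of all genes tested, and *Per1* (r = -0.0231) and *Nr1d1* were the exceptions. Within the members, *Per2* and *Nr1d1* had an r of -0.524, while *Dbp* and *Ciart* (0.874), *Dbp* and *Nr1d2* (0.862), *Per3* and *Tef* (0.897) and *Per2* and *Cry1* (0.864) varied together. *Dbp* and *Nr1d1* had an r of 0.595 (permutation p = 0.0315, adjusted p = 0.042) and a rho of 0.593 (permutation p = 0.0362, adjusted p = 0.0724). Without control replicate 2 and day 1 replicate 1, it was 0.534 (permutation p = 0.0892), and with group means subtracted it was 0.486 (permutation p = 0.0918), so that it no longer passed. Leaving out 1 library at a time, its adjusted p was above 0.05 in 9 of 13 cases.

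**Figure D4:**
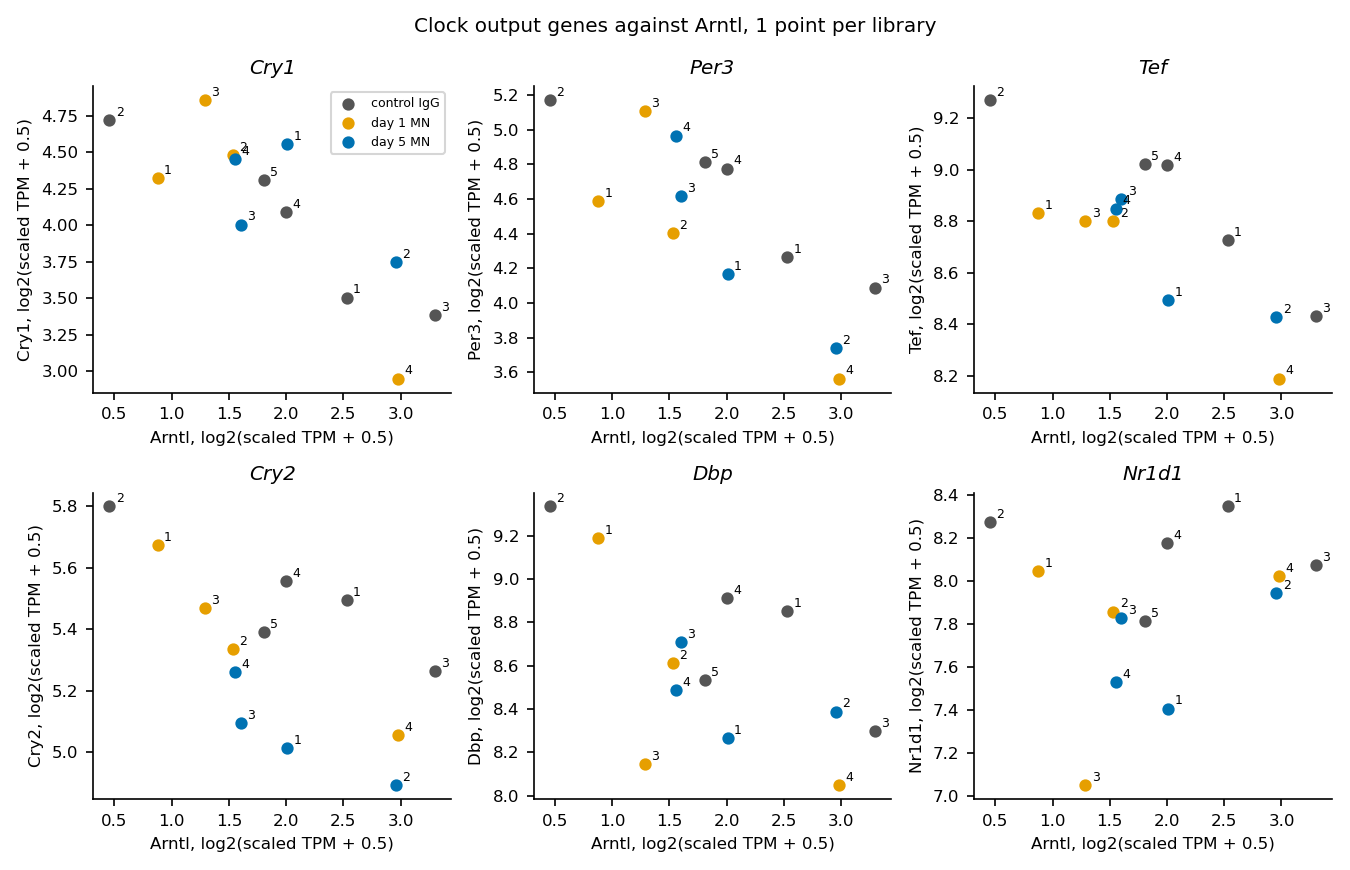
Log2(scaled TPM + 0.5) of 6 members (vertical axes) against that of *Arntl* (horizontal axes), 1 point per library, coloured by group and labelled with the replicate number. Over the 13 libraries r runs from -0.834 for *Cry1* to -0.625 for *Dbp* in 5 of the panels, and is 0.186 for *Nr1d1*.

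*Per1* followed *Tsc22d3*, which encodes GILZ and is induced by glucocorticoids, and not *Arntl*. *Tsc22d3* had TPM of 175, 218, 255, 135 and 267 in control libraries, of 76.8, 237, 301 and 112 at day 1 and of 274, 146, 176 and 188 at day 5. Its lowest libraries were day 1 replicates 1 and 4 and control replicate 4, the same as for *Per1*. Pearson's r was 0.914 (permutation p = 5e-05, adjusted p = 2e-04) and Spearman's rho was 0.846 (permutation p = 6.4e-04, adjusted p = 0.00256). Without day 1 replicates 1 and 4, r was 0.809 (permutation p = 0.00116), and without all 3 low libraries, a choice made after seeing the values, it was 0.729 over 10 libraries. *Per1* was not the only member related to *Tsc22d3*. As a description, *Per2* had an r of 0.753 with it (rho = 0.857), and *Nr1d1* varied opposite to it (r = -0.512, and -0.772 with group means subtracted). For the other members, r with *Tsc22d3* ran from -0.383 (*Dbp*) to 0.414 (*Cry1*). Also as a description, the r of *Per1* was 0.891 with *Klf9* and 0.71 with *Fkbp5*, both of which respond to glucocorticoids, and 0.69 with *Per2*. With *Sgk1*, which is also induced by glucocorticoids, it was 0.214 (rho = -0.011) over the 13 libraries, so that *Per1* did not follow every such gene there. With group means subtracted, the r of *Per1* was 0.676 with *Sgk1*, 0.889 with *Klf9* and 0.685 with *Fkbp5*. Groups accounted for 64.3% of the variation of *Sgk1*. *Fkbp5* ran from 41.4 to 125 TPM in control libraries and from 17.4 to 109 at day 1. *Tsc22d3* did not differ between groups beyond its spread (log2 fold change -0.32 at day 1 and -0.06 at day 5, standard error 0.36 each, adjusted p = 0.746 and 0.957, limma).

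**Figure D5:**
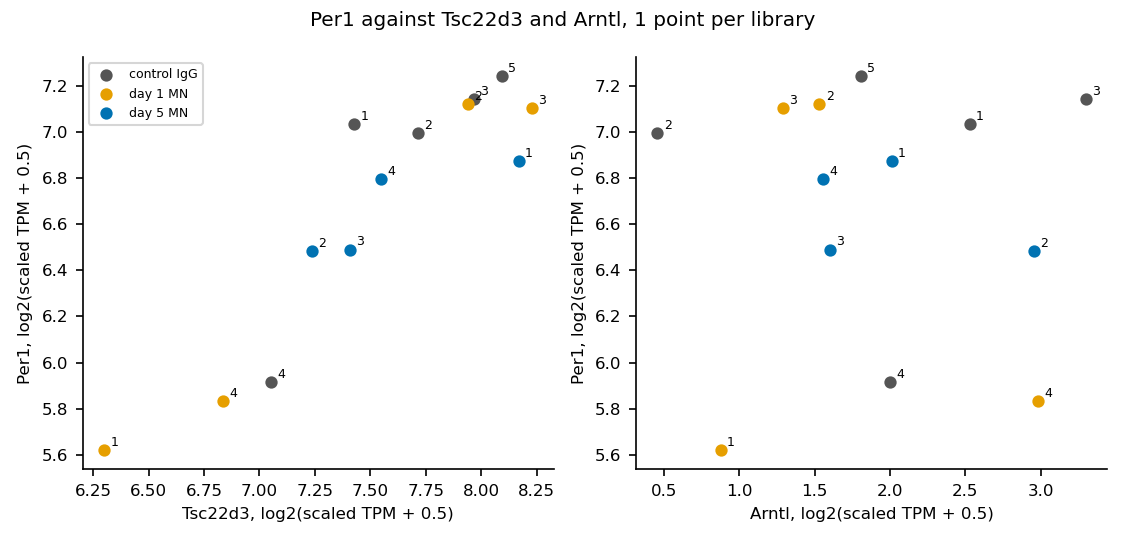
Log2(scaled TPM + 0.5) of *Per1* (vertical axes) against *Tsc22d3* (left) and *Arntl* (right), 1 point per library, coloured by group and labelled with the replicate number. *Per1* rises with *Tsc22d3* (r = 0.914) and shows no such order with *Arntl* (r = -0.0231).

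The remaining genes of the loop were read from lists of transcription factors, protein modifiers and known rhythmic outputs. Of 11 loop transcription factors, 10 were tested and 0 were called in any comparison, with 0 genes at an unadjusted p under 0.05 at day 1, 2 at day 5 and 1 between the days (limma). Over all genes tested, 12.6%, 20.1% and 15.5% had such a p in these comparisons, and 0.0908%, 3.21% and 1.81% were called. These shares are also the background for the other lists. *Clock*, the partner of BMAL1, stayed between 21.1 and 32.8 TPM and had an r of 0.893 with *Arntl*. *Npas2*, which is related to *Clock*, was listed at 0 in control replicate 2, where *Arntl* was lowest, and ran from 0.236 to 1.15 TPM in the other control libraries, from 0.0595 to 1.38 at day 1 and from 0.183 to 2.07 at day 5. For day 5 it was fitted at 0.84 log2 units above control (95% interval -0.27 to 1.95, adjusted p = 0.408, limma). *Nfil3*, a repressor at D-boxes, had TPM of 2.2 to 3.85 in control libraries, 1.92 to 2.25 at day 1 and 1.69 to 4.37 at day 5, and its log2 fold changes were -0.44 and 0.12 (adjusted p = 0.465 and 0.847, limma). Of the 9 protein modifiers, among them the kinase genes *Csnk1d* and *Csnk1e*, 0 were called, with 1 at an unadjusted p under 0.05 at day 1, 0 at day 5 and 3 between the days (limma), and their within-group SD had a median of 0.0944, under that of all genes. Of the 12 rhythmic output genes, 0 were called, with 1 at an unadjusted p under 0.05 at day 1, 2 at day 5 and 0 between the days (limma). *Sgk1*, which encodes a kinase that regulates sodium transport, passed on its adjusted p at day 5 but not on its fold change (0.41, standard error 0.09, adjusted p = 0.0186, limma).

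The genes whose pattern over the 13 libraries was most like that of *Dbp* were ranked among the other 14321 genes tested by Pearson's r on the log2 scale. Outside the members, the highest were *Bhlhe41* (0.929), *Rmc1* (0.917), *Abcf1* (0.875), *Mapk12* (0.87) and *Irf1* (0.869). *Bhlhe41* encodes DEC2, a repressor that also binds E-boxes, and ran from 11.5 to 41.4 TPM. The lowest were *Acyp1* (-0.926), *Dtx4* (-0.88), *Sema3e* (-0.855), *0610009B22Rik* (-0.847) and *Myzap* (-0.825). Of the members, *Ciart* ranked 4 and *Nr1d2* ranked 7 among the 14321, while *Cry2* ranked 48, *Tef* 49 and *Nr1d1* 302. The other members did not follow *Dbp* closely, *Per3* ranking 807, *Cry1* 2392 (r = 0.302), *Per2* 4880 (r = 0.12) and *Per1* 10053 (r = -0.191). *Hlf*, the other PAR bZIP gene, ranked 19. With 13 libraries and this many genes, the ranks describe these libraries only.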

How the data were processed

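Glomerular RNA of 13 mice was measured by RNA-Seq, 1 library per mouse. Per the labels and methods, the authors trimmed reads with Trimmomatic 0.39, checked them with FastQC 0.11.9, assigned them to GRCm39 transcripts (Ensembl) with kallisto 0.46.2 and deposited TPM, 1 value per gene symbol and library. How transcripts were combined into genes is not given in the sources used here. The authors tested counts with DESeq2, and counts were not used here.

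Groups and replicate numbers came from sample titles. Each library's TPM were rescaled by a median-of-ratios factor taken from the 15772 genes listed above 0 throughout, and analysed as log2(scaled TPM + 0.5). Fold changes on this scale understate changes of low genes. Genes reaching 1 TPM in 4 or more libraries, 14322 in all, were fitted together with limma 3.58.1 in R 4.3.3 (mean-variance trend, all 3 groups), and p-values were adjusted by Benjamini-Hochberg per comparison. The call thresholds, an adjusted p of 0.05 and a log2 fold change of 0.5, are those of the study. Where nothing shows that mice came from separate litters or days, p-values measure only the spread between these samples. P-values of correlations came from 100000 two-sided permutations, adjusted over 4 pairs. Values were permuted over all libraries and not within groups, also where group means had been subtracted. Alternatives were pseudocounts of 0.1 and 1, other scaling and filters, no trend, only the compared groups, the replicate number as block, a tubular marker score as covariate, calls on the adjusted p alone and leave-one-out fits. The *Arntl* covariate and the further gene pairs were chosen after seeing the data. Members and lists were chosen with earlier results of these data known. Named were all members, fixed genes of the lists, called genes of the lists and the 5 genes most and least like *Dbp*. Other listed genes named for a value were chosen after it was seen. Marker lists were podocyte, endothelial, mesangial, tubular, leukocyte and immediate-early genes. Gene coordinates come from GENCODE (GRCm39) and promoters from RefSeq (GRCm38.p6). Python 3.11.15 and matplotlib 3.10.9 served for correlations and plots.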

Additional observations from a re-analysis of the deposited data

Results flagged for a closer look

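Of 45 combinations of a gene (the 10 members, *Arntl*, *Clock*, *Npas2*, *Nfil3* and *Tsc22d3*) and a group, 6 had a library whose gap to the nearest other exceeded the 95% limit of Dixon's test, which chance does in about 1 of 20 groups. Day 1 replicate 4 was the library concerned in 4 of them. Its *Tef* TPM was 287 against 432 to 447 in the other day 1 libraries, and its *Arntl* TPM was 7.28 against 1.31 to 2.32. Its *Npas2* TPM was 1.38 against 0.0595 to 0.0832, and its *Nfil3* TPM was 2.25 against 1.92 to 1.94. In the control group, *Ciart* in replicate 2 was 35 TPM against 13.6 to 19.1, and *Per1* in replicate 4 was 61.3 TPM against 132 to 148. The genes are related to each other, so that flags in 1 library are not independent.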

How the results depend on the processing

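The number of members called stayed at 0 in all 3 comparisons under each of 12 settings and in each of 13 fits that left out 1 library. The adjusted p of *Cry2* at day 5 ran from 0.00226 to 0.145 over the 12 settings and from 0.0398 to 0.188 over the 13 fits (limma), and its log2 fold change from -0.5 to -0.362. The lowest p came with *Arntl* as covariate (chosen after the data were seen), with which 11 genes were called at day 1 and 464 at day 5 against 13 and 460 without it. With the tubular marker score, itself higher at day 1, as covariate, the day 1 log2 fold changes of *Per2*, *Per3* and *Cry2* turned positive (0.13, 0.008 and 0.049), and 0 genes were called at day 1. With the *Arntl* covariate that of *Cry1* at day 1 was -0.053. Across fits without 1 library, day 1 values ran from -0.703 to 0.173 for *Per2*, -0.437 to 0.078 for *Per3* and -0.086 to 0.551 for *Cry1*, and the day 5 value of *Per2* from -0.247 to 0.12. The positive values came without day 1 replicate 4 for *Per2* (0.173) and *Per3* (0.078) at day 1, and without control replicate 2 (0.03), control replicate 5 (0.004) or day 5 replicate 2 (0.12) for *Per2* at day 5. *Cry1* turned negative at day 1 without control replicate 3 (-0.004) or day 1 replicate 3 (-0.086).

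Replicate numbers label different mice. Deviations of same-numbered libraries correlated between -0.056 and 0.091 over 12 pairs, and 2 of 13 libraries correlated best with their own number, so the numbers did not pair the samples. With the replicate block, 0 members were called, 149 genes were called at day 1 and 348 at day 5, and the day 5 log2 fold change of *Per2* was 0.004.

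The correlation of *Dbp* and *Arntl* was -0.248 without the 2 libraries farthest from the median and ran from -0.768 to -0.47 when 1 library was left out. That of *Dbp* and *Nr1d1* was 0.534 without the 2 libraries, 0.486 with group means subtracted and 0.522 to 0.72 when 1 library was left out. The cause of these changes was not tested. That of *Per1* and *Tsc22d3* ran from 0.871 to 0.946 and passed under every setting run, and that of *Nr1d1* and *Arntl* ran from 0.048 to 0.443 and passed under none. Depth is unknown, which limits the reading of *Npas2* and other genes near a TPM of 0.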

Other observations

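Tubular, endothelial and immediate-early genes were read beside the clock genes. All 12 tubular markers had a positive log2 fold change at day 1 (median 0.73), 0 of them called and 8 at an unadjusted p under 0.05 (limma), against 12.6% of all genes tested. Between day 5 and day 1 MN all 12 were negative (median -0.766) and 2 were called, against 1.81% of all genes. Across the 13 libraries, the r of a marker list's mean log2 level with the 10 members, given as a description, ran from -0.414 (*Per1*) to -0.0677 (*Cry2*) for tubular markers, from -0.741 (*Cry1*) to 0.166 (*Nr1d1*) for podocyte markers and from -0.256 (*Cry2*) to 0.352 (*Cry1*) for endothelial markers. It ran from -0.32 (*Per3*) to 0.246 (*Nr1d1*) for mesangial markers, from -0.489 (*Per1*) to 0.56 (*Dbp*) for leukocyte markers and from -0.698 (*Nr1d1*) to 0.508 (*Per2*) for immediate-early and dissociation genes. Of 12 immediate-early and dissociation genes, *Egr1* (log2 fold change 0.94, adjusted p = 0.0271, limma) and *Fosb* (1.37, adjusted p = 0.0395, limma) were called higher at day 1, and *Egr1* (0.65, adjusted p = 0.0162, limma) and *Junb* (0.51, adjusted p = 0.0175, limma) at day 5. Over all genes, 0.0908% were called at day 1 and 3.21% at day 5. All 8 endothelial markers had a positive log2 fold change at day 5 (median 0.21), 0 of them called and 4 at an unadjusted p under 0.05 (limma), against 20.1% of all genes. The part of these genes in the clock gene values was not tested.

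The gene with the most opposite pattern to *Arntl* was *Eif5a2* (r = -0.933, 5.42 to 9.27 TPM), and those with the most similar pattern were *Lasp1* (0.91), *Kremen1* (0.907), *Tdrd5* (0.9), *Golim4* (0.895) and *Clock* (0.893). Of the members, *Cry1* had the 8th lowest r of 14321 genes, *Per3* the 15th and *Tef* the 22nd. Of the 12 rhythmic outputs, 4 had r under -0.5 with *Arntl* (*Tspan4*, *Coq10b*, *Usp2* and *Wee1*) and 4 had a positive r, over a range from -0.832 for *Tspan4* to 0.226 for *Pdk4*. These rankings were made after the values of *Arntl* had been seen and describe 13 libraries.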
